A study of Homo sapiens with 30 samples.

Results

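The MHC class I presentation genes HLA-B, HLA-C, HLA-E, HLA-F, B2M, TAP1, TAP2, TAPBP and NLRC5 were followed in G401 cells, an established line from a malignant rhabdoid tumour of the kidney. These 9 genes were listed by function and found by symbol. They had 29 of the 18132 entries in the RNA-seq table and 9 of the 20582 entries in the PRO-seq table. DTMYC cells were G401 cells given, by lentivirus, a MYC that carries an HA-FKBP12F36V tag at its N-terminus, after which CRISPR-Cas9 removed the endogenous MYC gene. The compound dTAG47 binds the tag and directs the tagged protein to degradation, and DMSO is its solvent. RNA-seq covered DTMYC cells in 500 nM dTAG47 or in DMSO, and parental G401 cells in 500 nM dTAG47 or in DMSO, all for 24 h, with 3 libraries in each of the 4 groups. PRO-seq, which counts engaged RNA polymerase, covered DTMYC cells after 4 h, with 2 dTAG47 and 2 DMSO libraries. ATAC-seq peak lists, which mark open chromatin, came from DTMYC cells after 24 h, with 3 dTAG47 and 3 DMSO libraries. MYC ChIP-seq peak lists came from DTMYC cells after 4 h, with 3 dTAG47 and 2 DMSO libraries. The labels give MYC as the antibody target, while the names of the peak lists read HA, the tag, and the labels were followed. All cells share the genetic background of one tumour line, and the labels do not say whether DTMYC cells grew from a single clone or whether libraries of a group came from separate cultures. The p-values therefore measure the spread between these libraries, which may be technical.

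MHC class I molecules show peptides from inside the cell to cytotoxic T cells. A heavy chain, encoded by HLA-B, HLA-C or another class I gene, pairs with the small invariant subunit B2M. TAP1 and TAP2 form the transporter that carries peptides into the endoplasmic reticulum, and TAPBP (tapasin) holds the empty heavy chain beside it. HLA-E presents leader peptides of other heavy chains to receptors of natural killer cells, and HLA-F is a related non-classical heavy chain. NLRC5 is the transactivator of the class I genes. Heavy chain promoters are known to carry an NF-kB site, an interferon response element bound by IRF factors, and a downstream module bound by RFX, CREB/ATF and NF-Y factors.

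The reference promoters of B2M, HLA-B, HLA-C and TAP2 are shown because these genes carry most of the counts described here and their start sites were examined for peaks. The sequences are from RefSeq, were found once each in GRCh37, which is hg19, and run 5′ to 3′ on the gene's strand from position -250 to -45 relative to the RefSeq start. Positions nearer the start were left out. Capitals mark any of 5 motifs found on either strand: the E-box CACGTG that MYC binds with MAX, CCAAT (NF-Y), TGACG (CREB/ATF), AANNGAAA (IRF factors) and the NF-kB consensus of 10 bases. The B2M sequence is chr15:45003465-45003670 on the plus strand, and the others lie on the minus strand at chr6:31325001-31325206 (HLA-B), chr6:31239914-31240119 (HLA-C) and chr6:32806561-32806766 (TAP2).
B2M: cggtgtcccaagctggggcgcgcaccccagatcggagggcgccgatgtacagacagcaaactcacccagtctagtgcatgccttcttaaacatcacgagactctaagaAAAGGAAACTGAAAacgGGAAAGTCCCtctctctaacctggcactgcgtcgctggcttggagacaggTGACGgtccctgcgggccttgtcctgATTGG
HLA-B: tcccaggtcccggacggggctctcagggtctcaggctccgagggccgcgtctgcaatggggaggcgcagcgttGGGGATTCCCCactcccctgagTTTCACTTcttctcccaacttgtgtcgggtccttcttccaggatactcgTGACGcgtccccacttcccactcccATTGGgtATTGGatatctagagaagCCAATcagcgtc
HLA-C: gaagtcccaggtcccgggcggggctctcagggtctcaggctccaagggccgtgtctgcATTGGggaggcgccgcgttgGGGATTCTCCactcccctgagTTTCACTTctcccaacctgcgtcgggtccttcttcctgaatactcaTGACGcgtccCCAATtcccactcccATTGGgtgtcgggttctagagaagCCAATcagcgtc
TAP2: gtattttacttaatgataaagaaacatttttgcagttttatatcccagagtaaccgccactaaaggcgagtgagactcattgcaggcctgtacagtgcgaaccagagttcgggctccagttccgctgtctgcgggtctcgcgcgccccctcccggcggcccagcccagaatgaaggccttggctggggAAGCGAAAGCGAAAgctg

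In HLA-B 2 overlapping matches to the NF-kB consensus began at -177 and -176, the IRF core began at -155 and TGACG at -106, and the CCAAT box nearest the start lay at -56 to -52. HLA-C had the same order, with the NF-kB consensus at -172, the IRF core at -151, TGACG at -105 and the nearest CCAAT box at the same place, -56 to -52. The HLA-B and HLA-C stretches were identical at 187 of 210 aligned positions (89.0%). B2M carried 2 overlapping IRF cores beginning at -142 and -136, then the NF-kB consensus at -125, TGACG at -75 and CCAAT at -49, an order that differs from that of the heavy chains. TAP2 carried 2 overlapping IRF cores beginning at -62 and -56 and none of the other motifs. CACGTG was in none of the 4 stretches, nor in those of HLA-F, TAP1 and TAPBP, and among 35116 RefSeq promoters cut to the same positions 4.76% held it. The shares of those promoters were 28.3% for CCAAT, 16.8% for TGACG, 17.6% for the IRF core and 4.4% for the NF-kB consensus. The promoter table used here matched 7 of the 9 genes, all but NLRC5 and HLA-E. These are reference letters, not those of the G401 alleles, which can differ in so variable a region.

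RNA-seq totals ran from 27854207 to 54633745 counts per library, which puts the floor of 3 counts between 0.0542 and 0.106 CPM (counts scaled by the effective library size). MYC mRNA averaged 1410 ± 64.7 CPM in DTMYC cells with dTAG47, 1366 ± 46.2 in DTMYC cells with DMSO, 235 ± 7.8 in parental cells with dTAG47 and 235 ± 28.2 in parental cells with DMSO (SD, n = 3 each). The lines were thus separated by the transgene's mRNA, while loss of the tagged protein cannot be read from mRNA. SMARCB1, the gene that defines rhabdoid tumours, was looked up as a check of the labels. No chromosome entry for it was found, so its level is not given. Replicate 3 of parental DMSO stood apart, with a root mean square log2 distance of 0.569 to its group, against 0.273 to 0.441 for the other 11 libraries, and results that rest on it are given with and without it. Summed leukocyte markers lay between 3.8 and 5.82 CPM in all 4 groups, mostly CSF1R, and PTPRC, CD3E and MS4A1 were at 0 in 11 of 12 libraries. Summed endothelial markers, mostly VWF, ranged from 1.55 to 3.55 CPM in DTMYC libraries and from 0.26 to 0.791 CPM in parental libraries, with CDH5, KDR, TEK and EMCN at 0 in at least 8 of 12 libraries. In bulk RNA, fewer cells carrying a transcript and less transcript per cell cannot be told apart.

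Most reads of the class I region were listed on alternative MHC haplotypes and not on chromosome 6. The hg19 build holds 7 extra contigs (GL000250.1 to GL000256.1) that carry other versions of the region, and the RNA-seq table listed 228 entries on them. Between the start of HLA-F (chr6:29690552-29706305) and the end of TAPBP (chr6:33267471-33282164), 40 genes had entries both on chromosome 6 and on these contigs, and 89.7% of their 12-library counts lay on the contigs. HLA-C had 5 of 11881 counts on chromosome 6 (0.0421%), TAP2 had 1 of 1610 (0.0621%), HLA-B had 36 of 2471 (1.46%) and TAPBP had 13.6% of 1085. Within that 3.59 Mb span, 21.7% of 46 RNA-seq entries exceeded 10 counts per library on average, against 72.7% of 791 entries on the rest of chromosome 6. The PRO-seq table listed numbered chromosomes, X and Y without contigs, and in the span 137 of 157 gene bodies (87.3%) had no count in any library, against 13.5% of 895 on the rest of chromosome 6. How reads that match several contigs were handled is not given in the sources used here. Counts of HLA-B, HLA-C, HLA-E, HLA-F, TAP1, TAP2 and TAPBP are therefore uncertain as absolute levels, and few listed reads do not show low expression, and how reads divide among near-identical copies can differ with the allele.

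**Figure D1:**
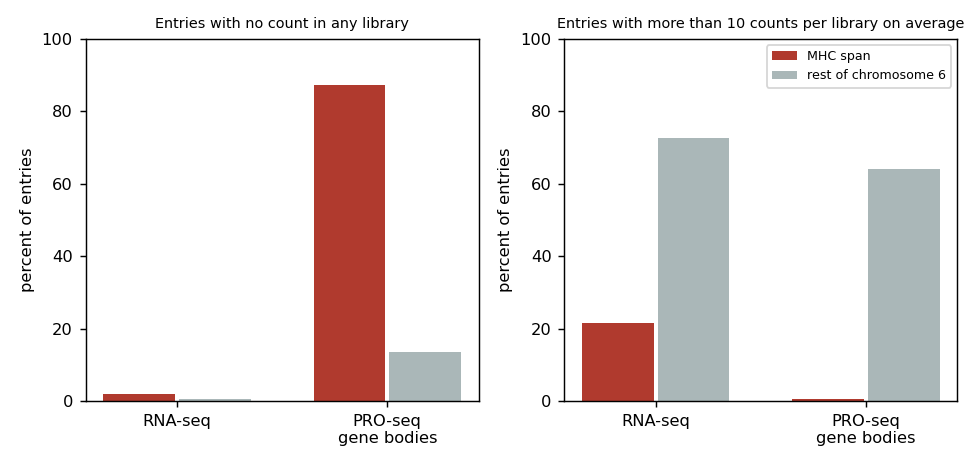
Percent of table entries with no count in any library (left) and with more than 10 counts per library on average (right), for the MHC span (red) and the rest of chromosome 6 (grey), in RNA-seq and PRO-seq gene bodies. In PRO-seq 87.3% of the span's entries were empty, against 13.5% elsewhere on the chromosome.

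Taking only chromosome entries (HLA-E had a single entry, on GL000253.1), 3 of the 9 genes passed the low-count filter: B2M, NLRC5 and TAPBP. With all contigs, 13 of 29 entries passed, from HLA-B, HLA-C, TAP2, TAPBP, B2M and NLRC5. HLA-E had 2 counts in all 12 libraries, HLA-F had 11, all in parental libraries, and TAP1 had 29, and none of these 3 was tested. Levels below sum a gene's entries, a choice made after the contigs were seen, and are in CPM per kb of transcript. Their order between genes is that of the listed reads, which can understate the genes of the MHC. Tests are given for single entries, and for the sums where stated.

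B2M, the light chain, had the highest listed level of the 9 genes. It stood at 73.3, 73 and 78.3 CPM per kb in DTMYC dTAG47 libraries, 71.2, 73.6 and 73 in DTMYC DMSO, 48.6, 51 and 52.1 in parental dTAG47, and 57.6, 52.3 and 64.3 in parental DMSO. Every DTMYC library lay above every parental library.

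HLA-C had the next highest listed level in every group. It stood at 4.82, 4.22 and 4.29 CPM per kb in DTMYC dTAG47 libraries, 3.39, 3.13 and 3.51 in DTMYC DMSO, 16.1, 15.7 and 16.2 in parental dTAG47, and 19, 17 and 13.2 in parental DMSO. The DTMYC libraries lay far below the parental libraries, and within DTMYC cells the dTAG47 libraries lay above the DMSO libraries without overlap.

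HLA-B followed, at 2.09, 2.07 and 1.9 CPM per kb in DTMYC dTAG47 libraries, 1.9, 1.78 and 1.91 in DTMYC DMSO, 2.17, 2.44 and 2.65 in parental dTAG47, and 2.24, 2.38 and 2.02 in parental DMSO. Within each treatment every DTMYC library lay below every parental library, by a far smaller margin than for HLA-C, and pooled over treatments the ranges overlapped.

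The transporter subunit TAP2 and tapasin followed at similar levels. TAP2 stood at 0.692, 0.517 and 0.7 CPM per kb in DTMYC dTAG47 libraries, 0.851, 0.766 and 0.832 in DTMYC DMSO, 0.578, 0.471 and 0.496 in parental dTAG47, and 0.43, 0.481 and 0.387 in parental DMSO. TAPBP stood at 0.696, 0.689 and 0.638 in DTMYC dTAG47 libraries, 0.557, 0.505 and 0.423 in DTMYC DMSO, 0.433, 0.411 and 0.454 in parental dTAG47, and 0.57, 0.497 and 0.317 in parental DMSO. The ranges of TAP2 and TAPBP overlapped in DTMYC dTAG47 and in parental DMSO libraries, and every TAP2 value exceeded every TAPBP value in DTMYC DMSO and in parental dTAG47 libraries.

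The transporter's other subunit had few listed reads. TAP1 had 9, 2 and 3 counts in DTMYC dTAG47 libraries, 3, 5 and 1 in DTMYC DMSO, 1 in each parental dTAG47 library, and 3, 0 and 0 in parental DMSO. Of the 12 libraries, 2 were above the floor of 3 counts: DTMYC dTAG47 replicate 1 and DTMYC DMSO replicate 2.

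NLRC5, the class I transactivator, was low in every library. It had 5, 3 and 2 counts in DTMYC dTAG47 libraries, 5, 7 and 6 in DTMYC DMSO, 30, 17 and 10 in parental dTAG47, and 31, 27 and 21 in parental DMSO. The DTMYC counts were all below the parental counts, and 2 of the DTMYC libraries were at or under the floor. In CPM per kb NLRC5 averaged 0.00895 ± 0.00437 in DTMYC dTAG47, 0.0152 ± 0.0037 in DTMYC DMSO, 0.0362 ± 0.00876 in parental dTAG47 and 0.0538 ± 0.0117 in parental DMSO (SD, n = 3 each).

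**Figure D2:**
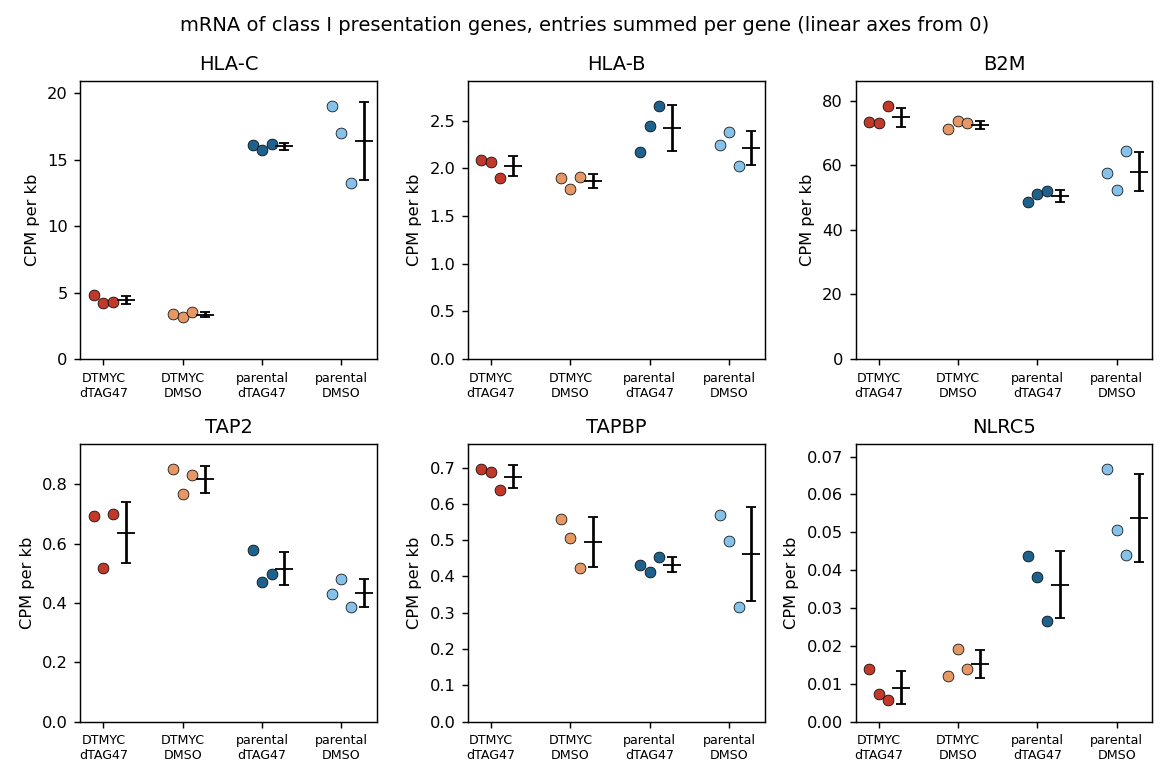
Level of each gene (CPM per kb of transcript, entries summed, axes from 0) in each RNA-seq library, by group; points are libraries and bars to their right are the mean ± SD of 3 libraries. HLA-C and NLRC5 are lower in DTMYC than in parental cells and B2M is higher, while HLA-B differs little.

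The comparison of dTAG47 with DMSO in DTMYC cells asks what follows 24 h after the tagged MYC is targeted. None of the 13 entries of these genes passed an adjusted p of 0.05 in edgeR's quasi-likelihood test with Benjamini-Hochberg adjustment over 13401 entries, where 8.71% of all entries passed (4.27% higher, 4.44% lower). At an unadjusted p under 0.05 the count was 5 of 13 for these genes and 3173 of 13401 for all entries. HLA-C was nearest to the threshold. Its main entry, on GL000252.1 (2532134 to 2535505), had 7.25, 5.77 and 5.46 CPM in dTAG47 libraries, against 4.4, 3.83 and 4.68 CPM in DMSO libraries. All dTAG47 values lay above all DMSO values, with a log2 fold change of 0.52 ± 0.16 (SE, 1.43-fold) and an adjusted p of 0.0587. Over 17 alternatives this adjusted p ran from 0.00372 to 0.227 and passed 0.05 in 4: with DESeq2 (0.0364), with DTMYC libraries alone in the fit (0.00823), without parental DMSO replicate 1 (0.0406) and without parental DMSO replicate 3 (0.00372). Summed over entries, HLA-C changed by 0.41 ± 0.13 with an adjusted p of 0.0621.

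The other heavy chain and loading genes moved by less than could be called. HLA-B summed changed by 0.12 ± 0.11 (adjusted p = 0.575) and B2M by 0.04 ± 0.08 (adjusted p = 0.794, 95% interval -0.13 to 0.21). TAPBP on GL000255.1 had 3.28, 3.15 and 2.87 CPM with dTAG47, against 2.55, 2.26 and 1.52 CPM with DMSO, and TAP2 on GL000254.1 had 4.31, 3.09 and 4.47 CPM, against 5.19, 4.79 and 5.11 CPM. Neither pair of groups overlapped, and the log2 fold changes were 0.56 ± 0.20 for TAPBP (adjusted p = 0.113) and -0.35 ± 0.15 for TAP2 (adjusted p = 0.191). The chromosome 6 entry of TAPBP had the opposite sign (-0.46 ± 0.48, adjusted p = 0.631), and summed TAPBP changed by 0.45 ± 0.19 (adjusted p = 0.167). NLRC5 changed by -0.73 ± 0.49 (adjusted p = 0.439), an interval of -1.80 to 0.33 that its few counts leave wide. Without parental DMSO replicate 3, 3 entries passed: HLA-C on GL000252.1 and TAPBP on GL000255.1 (0.53, adjusted p = 0.0214) upward and TAP2 on GL000254.1 (-0.39, adjusted p = 0.0425) downward, while 3951 of all entries passed, against 1167 with it. The fit with DTMYC libraries alone called the same 3 entries, with 4593 of all entries.

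Parental cells carry no tag, so dTAG47 in them measures the compound itself. None of the 13 entries passed in edgeR or in DESeq2, and 0.127% of all entries passed in edgeR (0.104% higher, 0.0224% lower). At an unadjusted p under 0.05 in edgeR the count was 2 of 13 for these genes and 2074 of 13401 for all entries. B2M stood at 153, 161 and 164 CPM in parental dTAG47 libraries, against 181, 165 and 203 CPM in parental DMSO libraries. These groups did not overlap, and B2M had a log2 fold change of -0.20 ± 0.08 (adjusted p = 0.259). HLA-B on GL000254.1 had 2.77, 2.92 and 3.33 CPM with dTAG47, against 2.08, 2.46 and 1.95 CPM with DMSO, a change of 0.46 ± 0.16 (adjusted p = 0.216). The other tested HLA-B entries changed by 0.10 (GL000251.1), -0.08 (GL000255.1), -0.59 (GL000253.1) and -0.035 (GL000256.1). Over its summed entries HLA-B changed by 0.12 ± 0.11 (adjusted p = 0.576). Summed HLA-C changed by -0.03 ± 0.12 (95% interval -0.29 to 0.22) and NLRC5 by -0.52 ± 0.26 (adjusted p = 0.362). Without parental DMSO replicate 3, 2718 of all entries passed, against 17 with it, and none of the 13.

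The difference of the responses, DTMYC minus parental, was tested as an interaction. None of the 13 entries passed in edgeR, where 1.19% of all entries did (0.597% higher, 0.59% lower), or in DESeq2. At an unadjusted p under 0.05 in edgeR the count was 4 of 13 for these genes and 2574 of 13401 for all entries. The largest differences by unadjusted p were HLA-C on GL000252.1 (0.58 ± 0.20, adjusted p = 0.153) and TAP2 on GL000254.1 (-0.60 ± 0.22, adjusted p = 0.171). TAPBP differed by 0.68 ± 0.29 on GL000255.1 (adjusted p = 0.231) and by -0.425 ± 0.643 on chromosome 6 (adjusted p = 0.75). Without parental DMSO replicate 3, HLA-C on GL000252.1 (0.69, adjusted p = 0.0028) and TAPBP on GL000255.1 (0.84, adjusted p = 0.0246) passed, and 2417 of all entries did, against 159 with it. Whether the HLA-C response was called as different between the lines thus rested on that library.

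**Figure D3:**
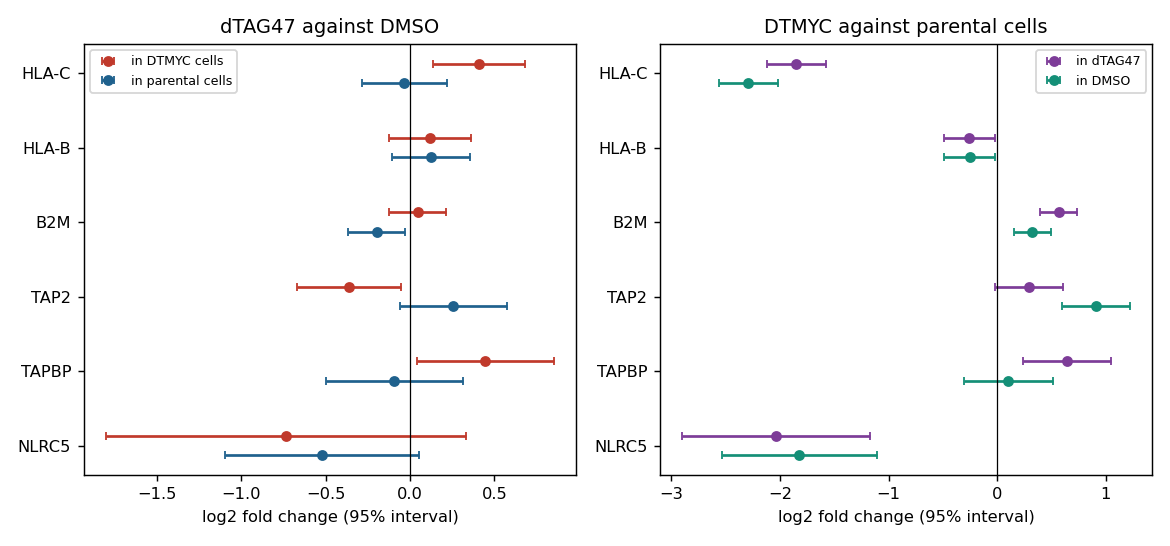
Log2 fold changes with 95% intervals from the edgeR fit on counts summed per gene, for dTAG47 against DMSO in each line (left) and DTMYC against parental cells in each treatment (right). The intervals of HLA-C and NLRC5 lie wholly below 0 in both line comparisons, and that of B2M wholly above 0, while those of HLA-B end just below 0.

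The largest differences lay between the lines. DTMYC cells differ from parental cells by the removed endogenous MYC, the lentiviral MYC and the history of the line, which cannot be told apart, and 73.3% of all entries differed in DMSO (36% higher, 37.3% lower). Of the 13 entries, 2 were higher and 4 lower, a smaller share than among all entries, and entries of one gene are not independent. The heavy chain HLA-C fell most. Its GL000252.1 entry had 4.4, 3.83 and 4.68 CPM in DTMYC DMSO libraries, against 37.9, 34.6 and 26.4 CPM in parental DMSO libraries, a log2 fold change of -2.93 ± 0.15 (adjusted p = 4.44e-09). Summed over entries the change was -2.29 ± 0.13, to 0.204 of the parental level (adjusted p = 7.7e-09). It ran from -3.08 to -2.82 for the GL000252.1 entry when single libraries were left out.

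NLRC5 fell with HLA-C, by 1.82 ± 0.33 on the log2 scale (0.283 of the parental level, adjusted p = 0.000302). B2M rose by 0.32 ± 0.08 (1.25-fold, adjusted p = 0.00239), with 225, 232 and 230 CPM in DTMYC DMSO libraries against 181, 165 and 203 CPM in parental DMSO libraries. TAP2 on GL000254.1 rose by 0.88 ± 0.16 (1.83-fold, adjusted p = 0.000264). HLA-B on GL000254.1 differed by -0.40 ± 0.17 (adjusted p = 0.052), and it passed without parental DMSO replicate 3 (-0.48, adjusted p = 0.0228), DTMYC DMSO replicate 1 (-0.55, adjusted p = 0.0205) or DTMYC dTAG47 replicate 2 (-0.40, adjusted p = 0.0495). HLA-B summed differed by -0.25 ± 0.11 (adjusted p = 0.0513) and TAPBP by 0.10 ± 0.19 (adjusted p = 0.646). The NLRC5, B2M, TAP2 and HLA-C calls held in all 17 alternatives.

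With dTAG47 in both lines, 76.4% of all entries differed (37.4% higher, 38.9% lower), and 2 of the 13 entries were higher and 5 lower. This comparison shares no library with the one in DMSO, but each shares its DTMYC and parental libraries with the dTAG47 comparisons above. Summed HLA-C was at 0.278 of the parental level (-1.85 ± 0.12, adjusted p = 5.41e-08) and NLRC5 at 0.244 (-2.03 ± 0.40, adjusted p = 0.000492). B2M was 1.48-fold higher (0.57 ± 0.08, adjusted p = 3.11e-05). TAPBP on GL000255.1, with 3.28, 3.15 and 2.87 CPM in DTMYC dTAG47 libraries against 1.75, 1.84 and 1.81 CPM in parental dTAG47 libraries, was higher by 0.79 ± 0.20 (adjusted p = 0.0036). Its chromosome 6 entry had the opposite sign and was not called (-0.36 ± 0.47, adjusted p = 0.504). Summed TAPBP was higher by 0.64 ± 0.19 (adjusted p = 0.00723). TAP2 on GL000254.1 differed by 0.28 ± 0.16 (adjusted p = 0.127). Summed HLA-B was lower by a small margin (-0.26 ± 0.11, adjusted p = 0.0468). HLA-B on GL000254.1 was lower (-0.46 ± 0.16, adjusted p = 0.0211), and this call was lost without DTMYC dTAG47 replicate 1, DTMYC dTAG47 replicate 3 or parental dTAG47 replicate 3. HLA-C on GL000253.1 was also lower (-0.91 ± 0.32, adjusted p = 0.0211), a call lost without DTMYC dTAG47 replicate 2 or parental dTAG47 replicate 1.

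HLA-C counts were also divided differently between 2 haplotype contigs in the 2 lines. GL000252.1 held 58.5, 53.2 and 49.5% of HLA-C counts in DTMYC dTAG47 libraries, 50.5, 47.7 and 51.9% in DTMYC DMSO, 76.7, 76 and 76.5% in parental dTAG47, and 77.7, 79.4 and 77.8% in parental DMSO. GL000254.1 held most of the remainder, from 36.8 to 45.3% in DTMYC libraries and from 18.3 to 21.3% in parental libraries. The GL000252.1 share was lower in every DTMYC library than in every parental library, with a mean difference, DTMYC minus parental, of -22.7 percentage points in dTAG47 and -28.3 in DMSO. The share was singled out after its values were seen, so it is a description with no test. In DMSO, HLA-C on GL000254.1 was lower in DTMYC cells by a smaller log2 fold change (-1.12 ± 0.12, adjusted p = 5.19e-06) than on GL000252.1. Which alleles G401 cells carry was not analysed here, so the contigs are named only as the places where reads were counted. For HLA-B, GL000254.1 held from 29.3 to 45.2% of counts in DTMYC libraries and from 34.5 to 47.2% in parental libraries, ranges that overlap.

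**Figure D4:**
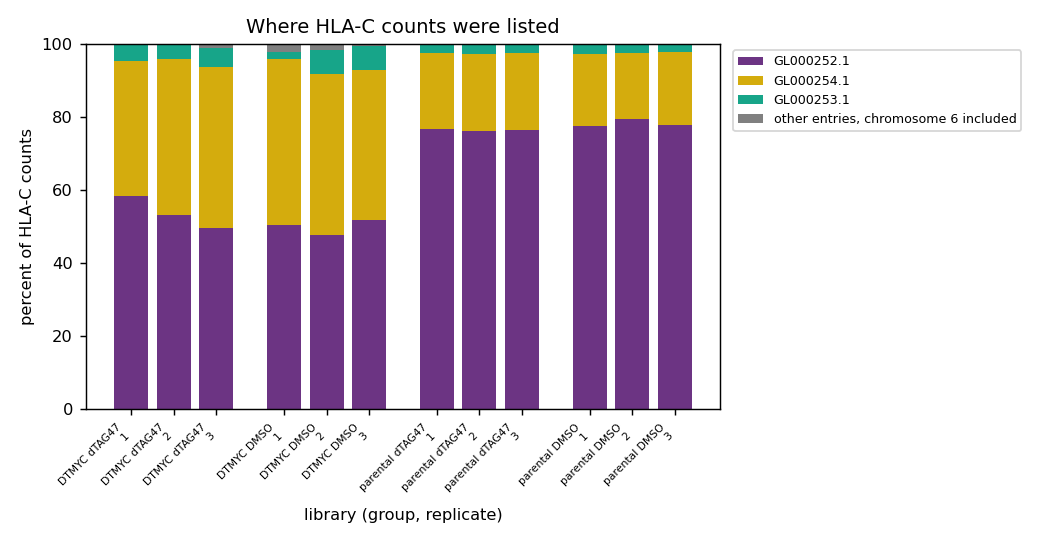
Percent of HLA-C counts listed on each haplotype contig in each RNA-seq library, by group. GL000252.1 holds 47.7 to 58.5% in the 6 DTMYC libraries and 76 to 79.4% in the 6 parental libraries.

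The rest of the pathway was read from lists of partner genes, by their entries on main chromosomes. Entries on contigs were not read, so measured means past the low-count filter on a main chromosome. That held for 9 of 11 peptide supply genes (not PSMB8 or PSMB9) and 5 of 12 class I-like genes. It held for 2 of 12 class II genes, CIITA and CD74, and for no HLA class II gene. The genes left out are not shown to be unexpressed. In DTMYC cells, dTAG47 against DMSO, 3 of 12 interferon signalling genes rose and none fell, where 4.27% of all entries were higher and 4.44% lower. STAT2, which carries the type I interferon signal to the nucleus, averaged 30.1 ± 1.21 CPM with dTAG47 and 19.1 ± 0.714 CPM with DMSO (SD, n = 3 each), a log2 fold change of 0.66 ± 0.09 (adjusted p = 0.00154). SOCS1, an inhibitor of JAK kinases, changed by 0.55 ± 0.12 (adjusted p = 0.0168), and the receptor kinase TYK2 by 0.33 ± 0.08 (adjusted p = 0.0251). The list's median was 0.22, against 0.03 for all entries. Of 14 promoter-binding regulators only IRF1 passed (0.36 ± 0.10, adjusted p = 0.0493), and of 9 measured peptide supply genes only THOP1, a peptidase that destroys cytosolic peptides, passed and fell (-0.35 ± 0.08, adjusted p = 0.0244). STAT2 kept its call in all 17 alternatives, SOCS1, TYK2 and THOP1 in 12 each and IRF1 in 5.

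Among 5 measured class I-like genes, 2 rose with dTAG47 in DTMYC cells, against 4.27% of all entries. HFE, an iron regulator that pairs with B2M, averaged 17.2 ± 0.472 CPM with dTAG47 and 10.8 ± 0.228 CPM with DMSO (0.67 ± 0.09, adjusted p = 0.00156, called in all 17 alternatives). MR1, which presents vitamin metabolites to T cells, changed by 0.51 ± 0.14 (adjusted p = 0.0404, called in 8 of 17). None of the 9 loading chaperones, of the 8 PRC2 genes (a complex known to silence class I genes in tumours) or of the 2 measured class II genes passed. The most abundant chaperones, calreticulin (CALR, 0.09 ± 0.10) and calnexin (CANX, 0.03 ± 0.18), had adjusted p of 0.656 and 0.95. In parental cells no gene of these 7 lists passed, the median of the interferon list being -0.06, against -0.05 for all entries. The difference of responses passed only for HFE (0.62 ± 0.12, adjusted p = 0.0385), a call held in 4 of 16 alternatives. It was lost with RLE factors (0.0599), without the low-count filter (0.0674), with the replicate block (0.0593) and in 9 of 12 leave-outs.

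Between the lines in DMSO, 36% of all entries were higher and 37.3% lower in DTMYC cells, and several list counts were close to these shares. Of 9 peptide supply genes 4 were lower and 1 higher. PSME1 and PSME2, the interferon-inducible proteasome activator subunits, averaged 18.9 and 57.9 CPM in DTMYC cells and 75.4 and 106 CPM in parental cells, which is 0.25 and 0.546 of the parental level (adjusted p = 1.84e-08 and 6.28e-07). The immunoproteasome subunit PSMB10 changed by -1.07 ± 0.16 (adjusted p = 5.96e-05). Regulators split into 6 higher and 4 lower of 14. IRF2 (-2.22 ± 0.15, adjusted p = 5.49e-08) and RFXANK, a subunit of the RFX complex (-1.46 ± 0.13, adjusted p = 7.03e-07), were lower, and NFKB1 was higher (0.56 ± 0.08, adjusted p = 5.85e-05). Of 12 interferon signalling genes 8 were higher and 2, STAT2 and TYK2, were lower. Loading chaperones split into 4 higher, among them UGGT1, and 3 lower, among them GANAB. All 5 measured class I-like genes were lower, among them FCGRT, the neonatal Fc receptor that also pairs with B2M (-0.97 ± 0.12, adjusted p = 1.57e-05). Of 8 PRC2 genes 3 were higher, SUZ12 among them (1.08 ± 0.18, adjusted p = 0.000127), and PHF19 was lower (-0.28 ± 0.10, adjusted p = 0.0166), and the class II invariant chain CD74 was lower (-1.41 ± 0.13, adjusted p = 7.5e-07). With dTAG47 in both lines, where 37.4% of all entries were higher and 38.9% lower, the counts were 0 higher and 4 lower of 9 peptide supply genes, 6 and 6 of 14 regulators, 8 and 2 of 12 interferon genes, 4 and 3 of 9 chaperones, 4 and 2 of 8 PRC2 genes, and 1 and 3 of 5 class I-like genes.

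PRO-seq measured B2M and NLRC5 only. Gene bodies of HLA-B, HLA-C, HLA-E, HLA-F, TAP1 and TAP2 had no count in any of the 4 libraries, and TAPBP had 1 count in one, in a span where most entries were empty, so absence of transcription was not measured. Body totals ran from 18209879 to 23256313 counts. The B2M body had 29.5 and 24.7 CPM in dTAG47 libraries, against 28 and 25.8 CPM in DMSO libraries, and the groups overlapped. Its log2 fold change was 0.01 ± 0.14 (adjusted p = 0.987, 95% interval -0.32 to 0.35). NLRC5 had 15 and 14 body counts with dTAG47, against 16 and 15 with DMSO, a change of 0.03 ± 0.43 (95% interval -1.03 to 1.08). No gene body passed among 13397 (0% of all, with 1298 at an unadjusted p under 0.05, and 68 passed with DESeq2). With the replicate number as a block 4360 passed, neither B2M nor NLRC5 among them. The 0% therefore does not show that transcription was unchanged. Same-numbered libraries deviated together (r = 0.639), but there are only 2 pairs and what the numbers mean is not given. Near the start site, B2M had 115 and 152 CPM with dTAG47, against 126 and 136 CPM with DMSO, a change of 0.03 ± 0.20 (adjusted p = 0.992). No gene passed there among 10226 (0%, with 661 unadjusted, 2 with DESeq2 and 262 with the block). NLRC5 had no promoter-proximal count in any library at the start of the transcript listed there, which lies inside the gene model of the RNA-seq table. The B2M pausing value, promoter-proximal against body, was -0.18 ± 0.38 with gene body scaling and 0.015 when each region had its own scaling, which turned its sign, and no gene passed among 10129 (0%; 160 unadjusted).

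No MYC peak lay within 1000 bases of a start site of any of the 9 genes, on chromosomes or contigs, in any of the 5 MYC ChIP-seq lists, nor within 5000 bases. Of 19794 protein-coding genes, by start sites on chromosomes, 17.8% had a MYC peak in at least one list. On chromosome 6 the MHC span held 0, 0 and 1 MYC peaks with dTAG47 (0.278 per Mb in the last list, against 0.048 on the rest). With DMSO it held 1 and 0 (0.278 and 0 per Mb, against 1.29 and 0.392). The MHC contigs held 0, 0 and 3 MYC peaks with dTAG47 and 7 and 2 with DMSO. The density on chromosome 6 therefore leaves out peaks listed for other versions of the region. The MYC lists held 408, 7 and 193 peaks with dTAG47 and 4010 and 1519 with DMSO. A list of called peaks cannot show weaker binding, and the read depth behind it is unknown.

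ATAC-seq peaks lay within 1000 bases of a start site for 8 of the 9 genes in at least one of 6 lists, and HLA-F had none. By start sites on chromosomes alone the count was 4 of 9, and 70.6% of 19794 protein-coding genes had a peak in at least one list. B2M had the strongest, a single peak over its start on chromosome 15 in every list, with the authors' scores of 324, 137 and 298 with dTAG47, and 321, 293 and 121 with DMSO. In the list of DMSO replicate 1 it spanned chr15:45003334-45004377, which covers the whole of the B2M sequence printed above. TAP2 had a peak in every list, on GL000254.1 and on GL000252.1 (GL000254.1 scores of 71, 42 and 99 with dTAG47, and 133, 116 and 49 with DMSO). TAP1, with few listed RNA-seq reads, had a peak on GL000256.1 in 3 dTAG47 and 2 DMSO lists, with scores of 98, 25 and 59 with dTAG47 and 106 and 77 in the DMSO lists. TAPBP had one on chromosome 6 in 2 dTAG47 and 3 DMSO lists. NLRC5 had one in 2 dTAG47 lists (74 and 32) and 1 DMSO list (24), over the start of the gene on chromosome 16. HLA-C had peaks on GL000252.1 in 2 DMSO lists (the higher in each 13 and 41) and none with dTAG47, HLA-B had one in 1 dTAG47 list (33) and HLA-E in 1 dTAG47 and 2 DMSO lists. The HLA-C scores were at percentiles 0.846 and 31.9 of their lists. Since lists differ in length, from 28429 to 50983 peaks, no change was read from presence or score, and a minimum score of 50 left 5 genes with a peak.

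**Figure D5:**
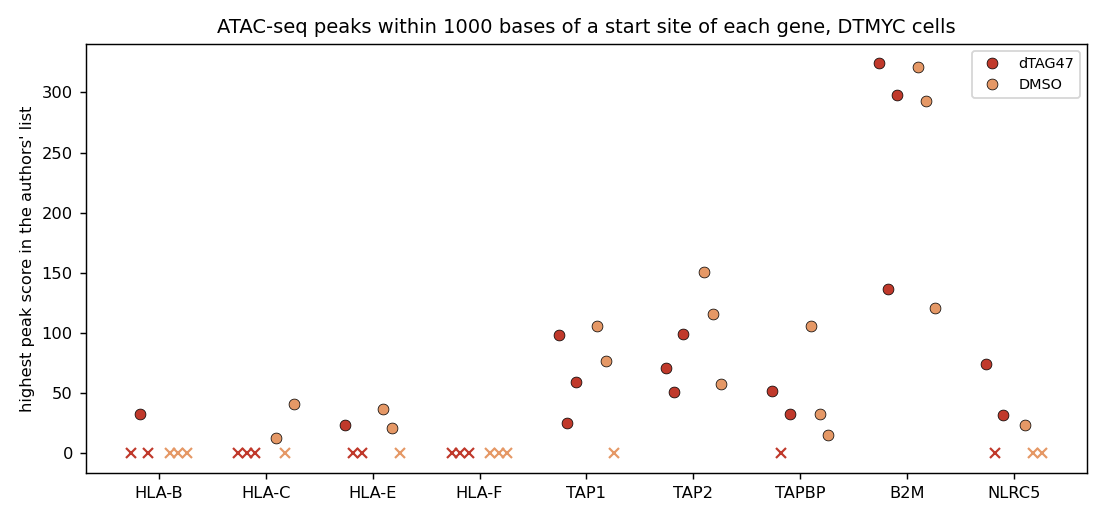
Highest score, in the authors' list, of an ATAC-seq peak within 1000 bases of a start site of each gene in DTMYC cells, for dTAG47 (left, red) and DMSO (right, orange) libraries; crosses at 0 mark lists with no peak there. B2M has the highest scores, from 121 to 324, in both treatments.

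The genes most like HLA-B, B2M and NLRC5 over the 12 RNA-seq libraries were found by the root mean square difference of centred log2 CPM. They were KIAA0556, COG1 and RIMBP2 for HLA-B (0.0569 to 0.0596), SKP1, PRPSAP2 and ZBTB8OS for B2M (0.031 to 0.056), and LONRF1, FGF8 and FBXL15 for NLRC5 (0.266 to 0.297). For HLA-C, added after its pattern was seen, they were SLC7A7, SFXN3 and LOXL1 (0.101 to 0.109). The genes' own deviations were 0.164 for HLA-B, 1.05 for HLA-C, 0.244 for B2M and 0.886 for NLRC5, and TAP1 was too low for this measure.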

How the data were processed

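The authors deposited raw read counts per gene entry for RNA-seq and, for PRO-seq, counts in promoter-proximal regions and gene bodies, per the file headers. A gene body density signal in the deposited PRO-seq table was not used. ATAC-seq and MYC ChIP-seq came as deposited peak lists with the authors' score per peak, called per library. Tools named in the submitters' processing notes were cutadapt, STAR and Bowtie2, featureCounts, MACS2, DiffBind and DESeq2, with the build hg19; their versions and settings were not given there. IgG libraries were not analysed here.

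The tests of counts used edgeR 4.0.16 (R 4.3.3): filterByExpr by group, TMM, and the two-sided quasi-likelihood F-test with Benjamini-Hochberg adjustment over all tested entries, at 0.05. All 12 RNA-seq libraries shared a fit without a replicate block, with a biological coefficient of variation of 0.121. PRO-seq gene bodies, promoter-proximal regions and their interaction were fitted over 4 libraries. Library-level RNA-seq values and SDs are in CPM of the effective library size, and intervals are at 95%. The RNA-seq fit and the PRO-seq gene body and pausing fits were tested on simulated counts. DESeq2 1.42.0, RLE scaling, no low-count filter, the replicate block, fits of the compared groups alone and leaving out each library were the alternatives. Summing entries per gene and the HLA-C shares were added after the data were seen. Start sites were GENCODE v44 on GRCh37, and on contigs the 5′ end of the entry, taking the gene's strand on chromosome 6. Promoters were RefSeq's for GRCh38.p14, located in GRCh37 by exact match.

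The named genes were all 9 members, from each list at most 3 called genes, by lowest adjusted p (or, with no call, the 2 of highest level), and the nearest patterns of at least 5 CPM. The members and lists were chosen with earlier results of these data known.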

Additional observations from a re-analysis of the deposited data

Results flagged for a closer look

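The response of HFE to dTAG47 differed between the lines by a test of the difference itself. HFE is a class I-like gene on chromosome 6 that lies outside the span between HLA-F and TAPBP. It averaged 17.2 ± 0.472 CPM in DTMYC dTAG47, 10.8 ± 0.228 in DTMYC DMSO, 13.5 in parental dTAG47 and 13.1 in parental DMSO (n = 3 each). The difference of the log2 responses, DTMYC minus parental, was 0.62 ± 0.12 with an adjusted p of 0.0385 (edgeR). Over 16 alternatives it stayed between 0.56 and 0.65, and the adjusted p ran from 0.000943 to 0.124 and passed 0.05 in 4. No group has the 4 libraries that a search for outlying samples needs.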

How the results depend on the processing

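Among the 13 entries in DTMYC dTAG47 against DMSO, 1 passed with DESeq2, 3 with DTMYC libraries alone in the fit and 0 to 3 when single libraries were left out. For the difference of responses that range was 0 to 2. Counts over all entries moved more. For DTMYC dTAG47 against DMSO they were 4593 with the compared groups alone and 329 to 3951 over leave-outs. For parental dTAG47 against DMSO they were 302 with DESeq2, 7 with RLE factors, 0 with the compared groups alone and 0 to 2718 over leave-outs. For the difference they were 585 with DESeq2, 63 with RLE factors, 102 without the low-count filter and 5 to 2417 over leave-outs. The highest value of each range was without parental DMSO replicate 3. The causes were not tested.

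The replicate numbers were not used to pair the RNA-seq libraries, since same-numbered libraries did not all deviate together. Between dTAG47 and DMSO, same-numbered correlations were 0.324, 0.048 and 0.367 in parental cells and 0.085, -0.011 and -0.048 in DTMYC cells. A pairing in parental cells is thus not excluded. What the numbers mean in PRO-seq, with 2 pairs, is not given. With the replicate block, 5 RNA-seq entries passed for parental dTAG47 against DMSO and 79 for the difference, none of them from the 9 genes. The PRO-seq fits with the block called 4360 gene bodies and 262 regions near start sites. Of the 9 genes, only B2M and NLRC5 were tested in gene bodies and only B2M near start sites, and none of these was called. The block changed no call of the 9 genes, but the difference of responses of HFE lost its call with it (0.62, adjusted p = 0.0593 in edgeR).

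PRO-seq gene bodies gave 68 calls with DESeq2, 2 without the filter and 5 to 44 over leave-outs, and promoter-proximal regions gave 2 with DESeq2, 2 without the filter and 1 to 5 over leave-outs. The B2M pausing value was 0.015 with own factors for each region. A minimum score of 50 left 5 genes with an ATAC-seq peak.

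Directions turned only for values that had not passed in the main fit. Summing entries gave TAPBP 0.446 (DTMYC dTAG47 against DMSO), 0.54 (difference) and 0.64 (lines in dTAG47), where its chromosome 6 entry was negative. The summed value for the lines in dTAG47 passed in edgeR (adjusted p = 0.00723), and the sums in the other comparisons named here did not. Over leave-outs, log2 fold changes for DTMYC dTAG47 against DMSO ran from -0.698 to 0.095 for TAPBP on chromosome 6 and from -0.071 to 0.608 for HLA-C on GL000253.1. For parental cells they ran from -0.347 to 0.265 (TAPBP on chromosome 6), -0.31 to 0.032 (TAPBP on GL000255.1), -0.201 to 0.026 (HLA-B on GL000255.1), -0.027 to 0.228 (HLA-C on GL000254.1), -0.215 to 0.043 (HLA-C on GL000252.1) and -0.155 to 0.234 (HLA-C on GL000253.1). For the difference they ran from -0.724 to 0.128 (TAPBP on chromosome 6), -0.212 to 0.017 (HLA-B on GL000255.1), -0.199 to 0.089 (HLA-B on GL000254.1) and -0.111 to 0.567 (HLA-C on GL000253.1). Between lines in DMSO they ran from -0.484 to 0.366 (TAPBP on chromosome 6), -0.092 to 0.303 (TAPBP on GL000255.1) and -0.096 to 0.112 (HLA-B on GL000255.1), and in dTAG47 from -0.191 to 0.036 (HLA-B on GL000255.1). In PRO-seq they ran from -0.146 to 0.129 (B2M body), -0.045 to 0.078 (NLRC5 body), -0.184 to 0.205 (B2M promoter-proximal) and -0.729 to 0.363 (B2M pausing).

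The calls of HLA-C on GL000252.1 and GL000254.1, NLRC5 and B2M between the lines held in all 17 alternatives in both treatments. Low counts limit TAP1, HLA-E, HLA-F and NLRC5, and intervals cover counting error and library spread only.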
